A study of Mus musculus with 8 samples.

Results

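The AP-1 subunits Fos, Fosb, Fosl2, Jun, Junb and Jund and the immediate early genes Egr1, Atf3, Ier2 and Dusp1 were followed in intestinal epithelial cells of lactating mice. These 10 genes were taken by name from a table of 54532 genes, and all 10 had counts. The cells came from female mice at lactation day 5, 4 WT and 4 Rank-knockout, with 1 library from each sample. Rank is the gene Tnfrsf11a, which encodes the receptor for the cytokine RANKL, and per the study's methods loxP-flanked Rank alleles were deleted with a Cre driven by the Villin1 promoter, which is active in the epithelium of the gut. The mice were kept on a C57BL/6J background under specific pathogen-free conditions, and littermate females of both genotypes were mated with wild-type males of that strain. The labels name the control animals only as WT, so whether they carried the Cre or the floxed alleles is not given in the sources used here, and neither is the age of each animal or the order of the isolations.

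AP-1 is a transcription factor made of a dimer of a Jun protein with another Jun protein, a Fos protein or an ATF protein, and it binds DNA through a basic leucine zipper. Immediate early genes such as Fos, Egr1 and Ier2 are transcribed within minutes of a growth factor, cytokine or stress signal, through MAP kinases and factors that are already in the cell, and their transcripts are short-lived. RANK itself signals through TRAF6 to NF-κB and to the MAP kinases JNK, ERK and p38, and cutting and dissociating a tissue is a known trigger of the same genes.

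All 8 libraries were made from isolated cells. The study's methods describe mincing of the tissue, incubation in a dissociation reagent at room temperature, vigorous resuspension and filtering, after which RNA was extracted. No library from undissociated tissue was analysed here, so the level that isolation added to these genes cannot be told apart from the level in the intact epithelium, and whether handling differed between the genotypes was not tested. Total counts ran from 1530781 to 4335653 per library. Levels are in CPM, which are counts per unit of library size after TMM scaling. Libraries read the 3′ end of polyadenylated transcripts and gave about 1 tag per transcript, so that CPM of different genes compare numbers of transcripts without a length term. Tnfrsf11a, the deleted gene, was counted in every library, between 27.2 and 47.2 CPM in Rank-knockout and between 41.7 and 77.4 CPM in WT. It was called lower (-0.67 on the log2 scale, SE 0.22, edgeR adjusted p = 0.0321), with overlapping genotypes, and 7 of 17 alternatives did not make this call. Its 3′ tags need not lie in the deleted part, so this does not check the labels. Of the 11 epithelial identity markers, all 11 passed the filter on low counts, and their summed level ran from 11477 to 12474 CPM in WT and from 9585 to 12463 CPM in Rank-knockout.

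The sequences just before the starts of Fos, Jun and Fosl2 are shown because these 3 members were called lower in Rank-knockout. RefSeq (GRCm38.p6) gave a window for 8 of the 10 members, all except Egr1 and Ier2. Each sequence is the 250 bases before the RefSeq start of transcription, 5′ to 3′ on the strand of the gene, and the capitals mark matches to the motifs searched. Fos lies on the plus strand (chr12:85473640-85473889), Fosl2 on the plus strand (chr5:32136222-32136471) and Jun on the minus strand (chr4:95052223-95052472). For Fos and Jun the RefSeq start is the first base of the GENCODE gene, whereas for Fosl2 it lies 671 bases inside the gene interval given with its values, so that the Fosl2 window is within that interval.
Fos: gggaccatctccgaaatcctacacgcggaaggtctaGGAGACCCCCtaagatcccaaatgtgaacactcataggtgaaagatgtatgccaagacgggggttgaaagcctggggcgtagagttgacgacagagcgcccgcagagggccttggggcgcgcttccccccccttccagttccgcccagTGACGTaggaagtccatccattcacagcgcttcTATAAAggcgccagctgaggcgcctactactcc
Fosl2: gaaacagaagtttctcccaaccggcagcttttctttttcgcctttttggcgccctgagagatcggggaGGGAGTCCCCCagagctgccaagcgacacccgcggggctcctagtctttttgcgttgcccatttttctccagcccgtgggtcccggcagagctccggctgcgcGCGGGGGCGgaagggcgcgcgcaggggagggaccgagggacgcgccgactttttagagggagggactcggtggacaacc
Jun: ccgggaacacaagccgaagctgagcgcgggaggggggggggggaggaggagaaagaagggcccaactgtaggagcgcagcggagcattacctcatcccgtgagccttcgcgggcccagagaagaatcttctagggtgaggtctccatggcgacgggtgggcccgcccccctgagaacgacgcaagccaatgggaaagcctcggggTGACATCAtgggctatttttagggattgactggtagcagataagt

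The motifs were searched on both strands in the 8 windows of the members and in all 32851 windows of the table, in which some genes have several windows. In Fos the capitals are an NF-κB motif on the minus strand at bases 214 to 205 before the start, the cyclic AMP response core TGACGT at bases 66 to 61 and the TATA sequence TATAAA at bases 33 to 28. TGACGT was in 6.47% of all windows and in those of Fos, Atf3 and Dusp1, and TATAAA was in 12.4% of all windows and in that of Fos alone among the 8. In Jun the capitals are a match to TGACNTCA, a form of the AP-1 and cyclic AMP response sites, at bases 45 to 38. It was in 7.49% of all windows and also in that of Dusp1, where it had the letters TGACGTCA, found in 1.55% of all windows. Each TGACGTCA also counts as TGACNTCA and holds TGACGT on both strands. The RefSeq starts of Atf3 and Dusp1 lie 34706 and 53656 bases inside the gene intervals given with their values, so their windows are within those intervals. For Jund the RefSeq start lies 1210 bases before its interval.

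In Fosl2 the capitals are overlapping NF-κB motifs between bases 182 and 172 and the EGR motif GCGNGGGCG at bases 79 to 71. The NF-κB motif was in 7.25% of all windows and in those of Fos, Fosb and Fosl2, and the EGR motif was in 4.7% of all windows and in those of Fosb and Fosl2. The AP-1 site TGANTCA (6.75% of all windows) and the serum response CArG box (1.47% of all windows) were in none of the 8 windows. A match describes letters and is not a bound site, and the absence of a match says only that the letters were not in these 250 bases.

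Between the genotypes, 3 members were lower in Rank-knockout and 1 was higher. Fos fell by 1.53 on the log2 scale, Jun by 0.95 and Fosl2 by 0.87, whereas Ier2 rose by 0.59. Of the 10 members, 7 had enough counts to be tested with edgeR, and Junb, Jund and Egr1 were tested without a call at an adjusted p under 0.05. Fosb, Atf3 and Dusp1 did not pass the filter on low counts. Over all 9855 genes tested, 14.6% were called lower and 15.8% higher in Rank-knockout. The median log2 fold change of the 7 tested members was -0.60, with 6 of the 7 below 0 (among them Egr1, whose sign turned with the scaling), against a median of 0.02 over all genes tested. The members were chosen with earlier results of these data known, so this median describes them and tests nothing. In 5 of the 7 tested members no Rank-knockout library overlapped the WT range, and the untested Fosb, Atf3 and Dusp1 did overlap. Without overlap, Fos, Fosl2, Jun and Jund were lower in Rank-knockout and Ier2 higher, beside 14.3% of all tested genes lower and 14.4% higher. Jund overlapped with library totals and without the 50 most abundant genes in place of TMM scaling. WT 2 was the lowest WT library for 8 of the 10 members, all except Egr1 and Atf3, and at 4335653 counts it was also the deepest library, the other 3 WT libraries having 1530781 to 1616024. Without WT 2, 4 members were called lower (Junb added) and 0 higher, since Ier2 was not called, and after thinning all libraries to equal depth the members called were 3 lower and 1 higher. In RNA from many cells, fewer cells of a type and less RNA per cell cannot be told apart.

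**Figure D1:**
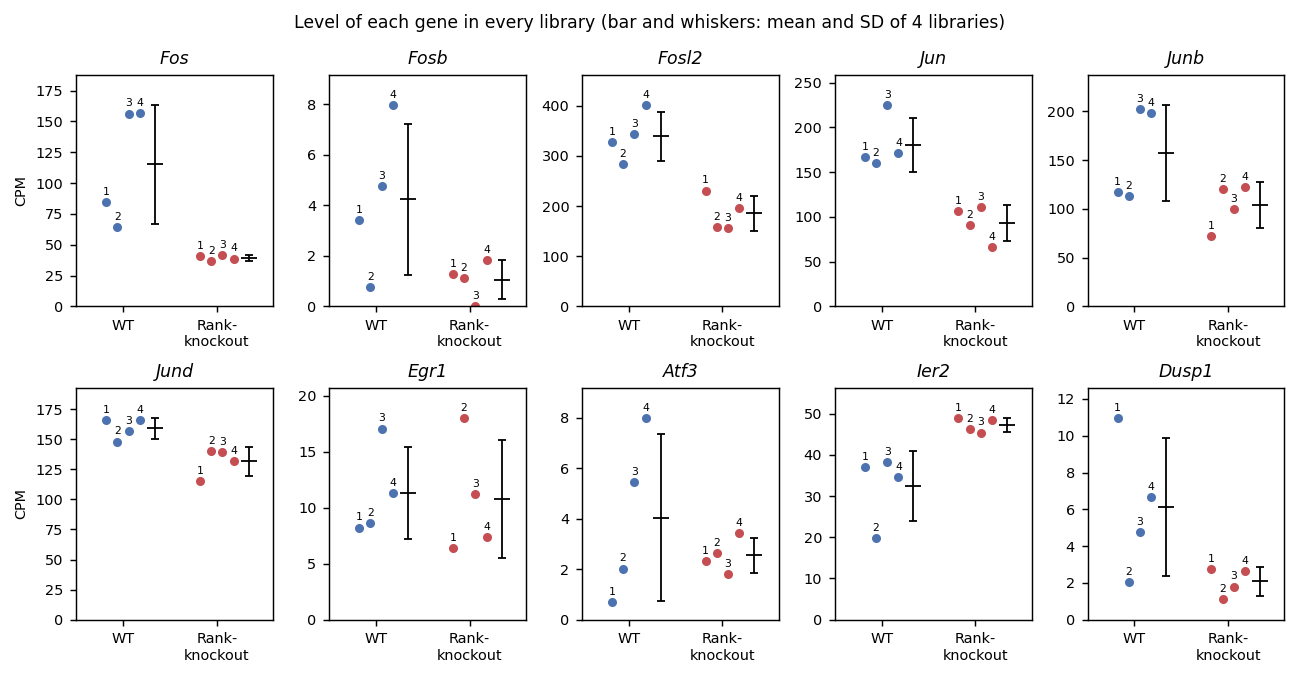
Level of each of the 10 genes in CPM (vertical axis, from 0) in every WT (blue) and Rank-knockout (red) library, numbered by replicate, with the mean and SD of the 4 libraries of each genotype. Fos, Fosl2, Jun and Jund lie lower and Ier2 higher in all 4 Rank-knockout libraries than in any WT library, and the WT libraries of Fos range from 64.1 to 156 CPM while those of Rank-knockout stay between 36.4 and 41.4 CPM.

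Fos, the founding partner of Jun in AP-1 (chr12:85473890-85477273 on the plus strand of GRCm38), was at 84.3, 64.1, 156 and 156 CPM in WT 1 to 4 and at 40.8, 36.4, 41.4 and 38.8 CPM in Rank-knockout 1 to 4. Every Rank-knockout library was lower than every WT library, and within WT libraries 3 and 4 were well above libraries 1 and 2. WT averaged 115 ± 48.2 CPM (SD, n = 4) and Rank-knockout 39.3 ± 2.24 CPM (SD, n = 4), and edgeR put the difference at -1.53 on the log2 scale with an SE of 0.26 and an adjusted p of 0.000949. The coefficient of variation of Fos was 41.8% among WT libraries and 5.71% among Rank-knockout libraries, against medians over all tested genes of 20.5% and 17.3%. Without WT 4 the log2 fold change was -1.38, without WT 3 it was -1.36 and without WT 2, the lowest WT library, it was -1.76.

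Fosl2, also called Fra-2, is a Fos family member (chr5:32135801-32157842, plus strand). It was the most abundant member in both genotypes, at 327, 283, 343 and 402 CPM in WT 1 to 4 and at 231, 158, 156 and 196 CPM in Rank-knockout 1 to 4. The genotypes did not overlap, with Rank-knockout 1 and WT 2 the closest libraries. Fosl2 averaged 339 ± 49.1 CPM in WT (SD, n = 4) and 185 ± 35.4 CPM in Rank-knockout (SD, n = 4). The difference came to -0.87 on the log2 scale with an SE of 0.16 and an adjusted p of 0.00118 in edgeR.

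Fosb, a Fos family member that is induced with Fos (chr7:19302696-19310051, minus strand), was near the limit of detection. Its raw counts were 5, 3, 7 and 12 in WT 1 to 4 and 6, 3, 0 and 7 in Rank-knockout 1 to 4, or 3.43, 0.76, 4.78 and 7.99 CPM against 1.27, 1.13, 0 and 1.85 CPM. The library with no Fosb count, Rank-knockout 3, allows a level of up to 1.35 CPM (3 counts, counting error only). WT 2 overlapped the Rank-knockout libraries and the other 3 WT libraries were above them. When no filter on low counts was used, the log2 fold change was -1.62 (SE 0.59, adjusted p = 0.0428). This p value rests on a spread shared across genes, not on the spread of Fosb itself.

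Jun, the partner of the Fos proteins (chr4:95049034-95052222, minus strand), was at 166, 160, 225 and 171 CPM in WT 1 to 4 and at 107, 90.4, 111 and 66.2 CPM in Rank-knockout 1 to 4. All Rank-knockout libraries were lower than all WT libraries, and WT 3 stood above the other WT libraries. Jun averaged 181 ± 30.1 CPM in WT (SD, n = 4) and 93.5 ± 20.2 CPM in Rank-knockout (SD, n = 4). The difference came to -0.95 on the log2 scale with an SE of 0.17 and an adjusted p of 0.00112 in edgeR. Jun overlaps the antisense gene Junos, and Junb, Jund and Atf3 also overlap a gene on the other strand, and the authors counted sense reads.

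Junb, a Jun family member that can replace Jun in the dimer (chr8:84974484-84978718, minus strand), was at 117, 113, 202 and 198 CPM in WT 1 to 4 and at 72.2, 120, 99.8 and 123 CPM in Rank-knockout 1 to 4. The genotypes overlapped, since WT 1 and WT 2 lay within the range of the Rank-knockout libraries and only WT 3 and WT 4 stood above it. WT averaged 158 ± 49.2 CPM (SD, n = 4) and Rank-knockout 104 ± 23.4 CPM (SD, n = 4), and Junb differed by -0.60 on the log2 scale (SE 0.22). Its adjusted p with edgeR was 0.0526, on the other side of the threshold from the 0.04 found with DESeq2, 0.0145 with the replicate number as a block and 0.00761 with no filter. Over the alternatives the adjusted p ran from 0.00761 to 0.159, and the value with no filter rests on a spread shared across genes. Like Fos, Junb was higher in WT 3 and WT 4 than in WT 1 and WT 2.

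Jund, the Jun family member that is expressed without a stimulus in many cells (chr8:70698949-70700616, plus strand), had the lowest coefficient of variation of the members in WT, 5.38%. It was at 166, 148, 156 and 166 CPM in WT 1 to 4 and at 115, 140, 139 and 132 CPM in Rank-knockout 1 to 4. The genotypes were set apart by WT 2 and Rank-knockout 2, which were close, but they did overlap when library totals were used without TMM scaling (135 to 158 in WT and 125 to 147 in Rank-knockout) and when sizes left out the 50 most abundant genes (168 to 196 and 146 to 176). Jund averaged 159 ± 8.55 CPM in WT (SD, n = 4) and 132 ± 11.8 CPM in Rank-knockout (SD, n = 4). The difference came to -0.27 on the log2 scale with an SE of 0.13 and was not called (edgeR adjusted p = 0.125).

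Egr1, a zinc finger factor of the serum response (chr18:34859823-34864984, plus strand), was at 8.22, 8.62, 17.1 and 11.3 CPM in WT 1 to 4 and at 6.37, 18.0, 11.2 and 7.38 CPM in Rank-knockout 1 to 4. The highest library was a Rank-knockout library, the next was a WT library, and the genotypes overlapped over nearly their whole range. The difference of -0.08 on the log2 scale had an SE of 0.35 (edgeR adjusted p = 0.887), and its sign turned with the scaling and with the libraries included, from -0.45 to 0.14. WT libraries together held 88 Egr1 counts and Rank-knockout libraries 131, and the CV of the CPM between libraries was 36.1% in WT and 49.1% in Rank-knockout.

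Atf3, a stress-induced member of the ATF family that dimerises with Jun proteins (chr1:191170296-191218039, minus strand), had 1, 8, 8 and 12 counts in WT 1 to 4 and 11, 7, 4 and 13 counts in Rank-knockout 1 to 4. In CPM these were 0.69, 2.03, 5.46 and 7.99 against 2.33, 2.63, 1.8 and 3.43, with WT 3 and WT 4 above all Rank-knockout libraries, WT 2 among them and WT 1 below them. With no filter the log2 fold change was -0.48 (SE 0.49, adjusted p = 0.564).

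Ier2, an immediate early gene whose product acts in the nucleus (chr8:84661331-84662852, minus strand), went the other way. It was at 37, 19.8, 38.2 and 34.6 CPM in WT 1 to 4 and at 48.8, 46.2, 45.4 and 48.5 CPM in Rank-knockout 1 to 4. Every Rank-knockout library was above every WT library, and WT 2 was lower than the other WT libraries. Ier2 averaged 32.4 ± 8.56 CPM in WT (SD, n = 4) and 47.2 ± 1.69 CPM in Rank-knockout (SD, n = 4). The difference came to 0.59 on the log2 scale with an SE of 0.20 and an adjusted p of 0.0371 in edgeR. The call was lost when WT 2, WT 4 or any 1 of the 4 Rank-knockout libraries was left out, with adjusted p from 0.0543 to 0.118, and without WT 2 the log2 fold change was 0.36 (adjusted p = 0.118).

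Dusp1, a phosphatase that inactivates MAP kinases and is induced by them (chr17:26505590-26562128, minus strand), had 16, 8, 7 and 10 counts in WT 1 to 4 and 13, 3, 4 and 10 counts in Rank-knockout 1 to 4. In CPM these were 11, 2.03, 4.78 and 6.66 against 2.76, 1.13, 1.8 and 2.64, so that WT 1, 3 and 4 were above all Rank-knockout libraries and WT 2 was among them. With no filter on low counts the log2 fold change was -1.29 (SE 0.47, adjusted p = 0.0402). That p value rests on a spread shared across genes, not on the spread of Dusp1 itself. The annotated span of Dusp1 overlaps the small genes AC122252.4 and AC122252.1 on the same strand, so its counts are uncertain.

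**Figure D2:**
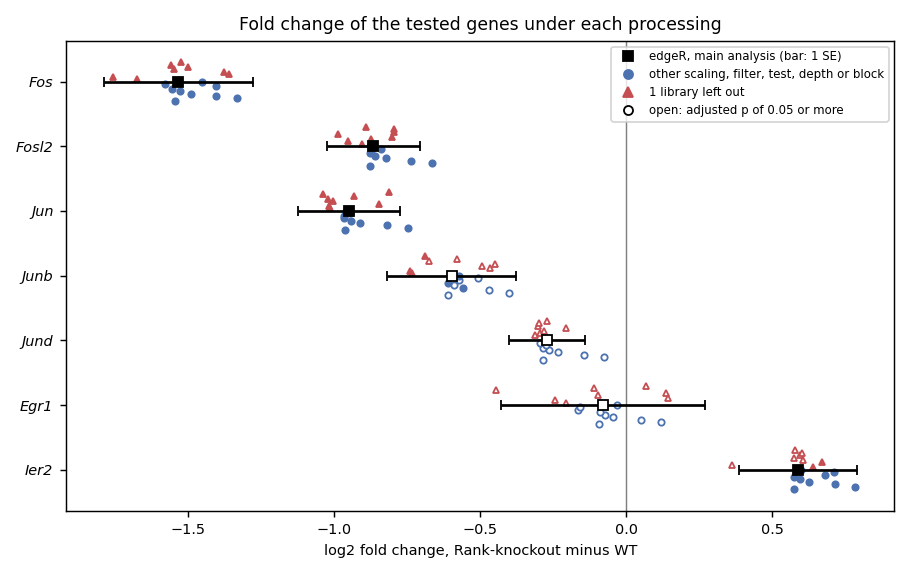
Log2 fold change, Rank-knockout minus WT (horizontal axis), of the 7 tested members in the main edgeR analysis (squares, bars of 1 SE), under another scaling, filter, test, depth or block (circles) and with 1 library left out (triangles), filled where the adjusted p was under 0.05. Fos, Fosl2 and Jun are filled throughout and lie between -1.76 and -0.67, Junb and Ier2 change between filled and open, and Jund and Egr1 are open throughout, Egr1 on both sides of 0.

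The order of the levels changed between the genotypes. In WT, Fosl2 stood above all other members without overlap, and was followed by Jun, Jund, Junb and Fos. The ranges of these neighbours overlapped, although Fos did not reach Jun. Ier2 came next, separate from Fos above it and from Egr1 below it, and Egr1, Dusp1, Fosb and Atf3 overlapped in turn. In Rank-knockout, Fosl2 was followed by Jund, Junb and Jun, which overlapped in turn, then by Ier2, Fos and Egr1, which did not overlap, and last by Atf3, Dusp1 and Fosb, which did. Fos was therefore the fifth member in WT and the sixth in Rank-knockout, where it fell below Ier2. Together the 10 members held 802 to 1162 CPM in WT libraries and 608 to 627 CPM in Rank-knockout.

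Ratios within a library need no scaling between libraries. Fos counts per Ier2 count were 2.28, 3.24, 4.09 and 4.52 in WT 1 to 4 and 0.83, 0.79, 0.91 and 0.80 in Rank-knockout 1 to 4. Fos was thus more abundant than Ier2 in every WT library and less abundant in every Rank-knockout library. Because Fos was lower and Ier2 higher in all Rank-knockout libraries, this ratio could not overlap, and it repeats their levels. Fos counts per Jund count were 0.51, 0.43, 1.0 and 0.94 in WT and 0.35, 0.26, 0.30 and 0.29 in Rank-knockout, which did not overlap. Jun counts per Junb count did overlap, at 0.86 to 1.421 in WT and 0.54 to 1.48 in Rank-knockout.

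**Figure D3:**
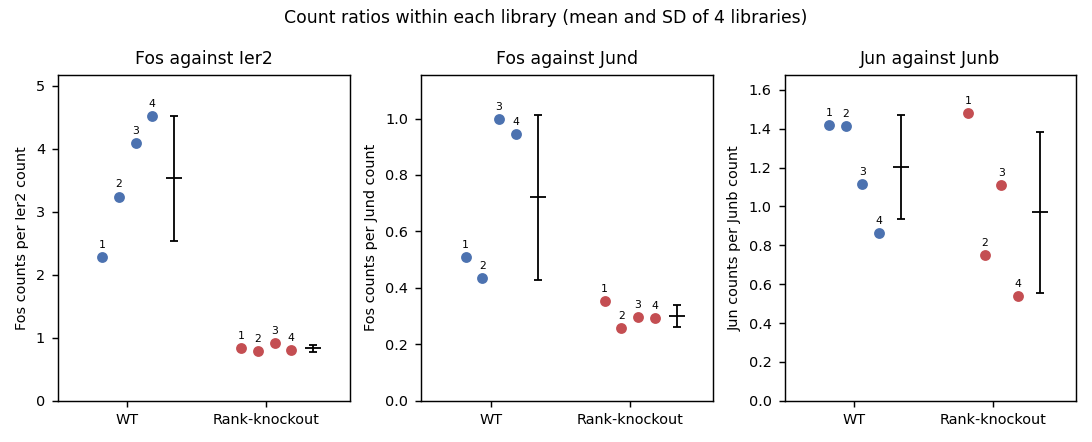
Ratio of the counts of 2 genes within each library (vertical axes, from 0, in counts per count) for Fos to Ier2, Fos to Jund and Jun to Junb, in WT (blue) and Rank-knockout (red) libraries numbered by replicate, with the mean and SD of the 4 libraries. The Fos to Ier2 ratio is 2.28 or more in every WT library and 0.91 or less in every Rank-knockout library, and the Jun to Junb ratios overlap.

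Among the counts of the 6 AP-1 subunits alone, the share of Fos was 11.7% ± 3.08 for WT libraries and 7.09% ± 0.38 for Rank-knockout libraries (SD over the 4 libraries). The closest libraries were WT 2 at 8.34% (95% Wilson interval 7.4% to 9.37%) and Rank-knockout 3 at 7.55% (6.2% to 9.17%), whose intervals overlapped, and intervals cover counting error only. Jund made up 17.0% ± 2.61 and 23.8% ± 2.5 of these counts, without overlap. The shares of Fosl2 (35.7% ± 2.84 and 33.3% ± 5.79), Jun (19.1% ± 2.47 and 16.9% ± 3.65) and Junb (16.2% ± 2.46 and 18.8% ± 4.39) overlapped between the genotypes. Fosl2 therefore had the greatest mean share in both genotypes.

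Other subunits and partners with a basic leucine zipper were described from a list of 15 genes, of which 10 were tested, 1 was called higher and 2 lower, with a median log2 fold change of 0.09, where 15.8% of all tested genes were called higher and 14.6% lower, so that these few calls do not set the list apart. Atf5 rose by 0.74 (SE 0.18, edgeR adjusted p = 0.00633). Mafk fell by 0.73 (SE 0.23, adjusted p = 0.0278) and Maff, a small Maf protein that lacks an activation domain, fell by 1.06 (SE 0.39, adjusted p = 0.0461). Of 17 alternatives, 7 did not call Mafk and 9 did not call Maff. With library totals 3 genes of the list were called higher and 0 lower, without the 50 most abundant genes 2 and 0, and neither was called lower after thinning, without WT 4 or without Rank-knockout 1. Atf4, the translation-controlled factor of the integrated stress response, ranged from 487 to 591 CPM in WT libraries and from 594 to 711 CPM in Rank-knockout libraries, without overlap and without a call (0.24 on the log2 scale, adjusted p = 0.187). Fosl1, the remaining Fos family gene, averaged 0.74 CPM in WT libraries and 0.78 CPM in Rank-knockout libraries and was not tested.

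Of 47 other immediate early genes, 33 were tested, 11 were called lower and 1 higher, with a median log2 fold change of -0.36. Over all tested genes 14.6% were called lower and 15.8% higher. Summed over the list, WT libraries held 5016 to 5508 CPM and Rank-knockout libraries 3431 to 3793 CPM. Klf4, a zinc finger factor of differentiated epithelium, ranged from 1440 to 1915 CPM in WT libraries and from 593 to 786 CPM in Rank-knockout libraries and fell by 1.21 on the log2 scale (SE 0.15, adjusted p = 0.000149). Sgk1, a kinase that raises sodium uptake, fell by 1.44 (SE 0.20, adjusted p = 0.000205), Klf6 by 0.94 (SE 0.16, adjusted p = 0.000704) and Tsc22d1 by 0.87 (SE 0.15, adjusted p = 0.000781). Sertad1 fell from 75.3 ± 13.9 CPM in WT to 48.4 ± 5.89 CPM in Rank-knockout (SD, n = 4), without overlap and by 0.63 on the log2 scale (SE 0.17, edgeR adjusted p = 0.01), and library totals alone among the 17 alternatives did not call it. Hes1, the Notch target, was the gene called higher, by 1.29 (SE 0.22, adjusted p = 0.000899). Without WT 4 or without Rank-knockout 1, 7 of these genes were called lower in place of 11, and with library totals in place of TMM scaling 5 were.

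**Figure D4:**
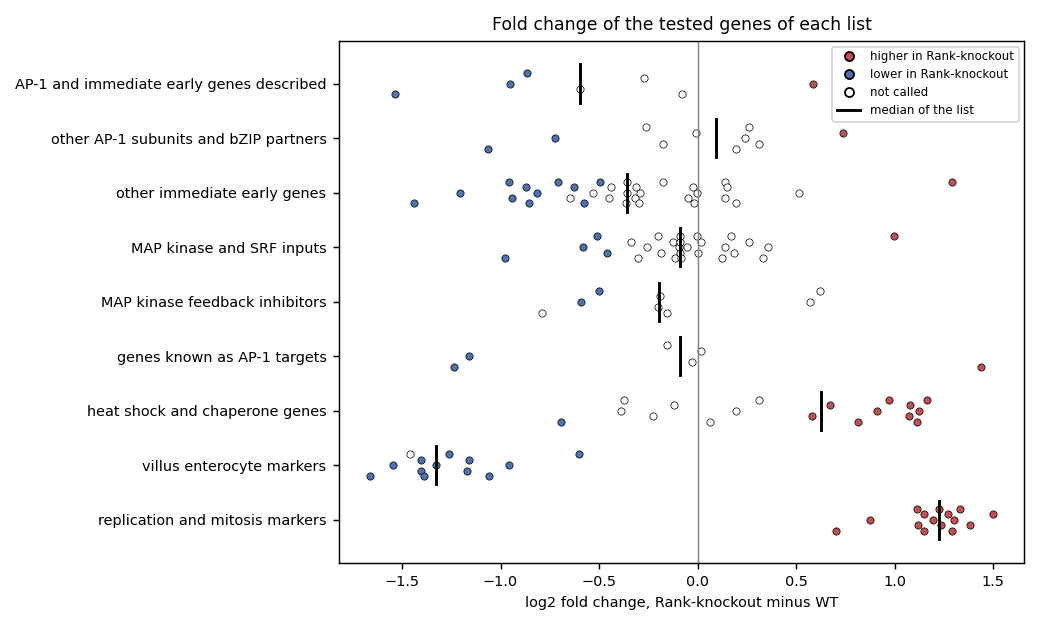
Log2 fold change, Rank-knockout minus WT (horizontal axis), of every tested gene of the members and of 8 lists (rows), coloured by the edgeR call, with the median of each list as a bar. The members and the other immediate early genes lie mostly below 0 (medians -0.60 and -0.36), the villus enterocyte markers lie below 0 (-1.33), and the heat shock and replication genes lie mostly above 0 (0.63 and 1.23). All lists were chosen with earlier results of these data known.

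Of 31 MAP kinase and SRF input genes, 28 were tested, 4 were called lower and 1 higher, with a median of -0.09. Over all tested genes 14.6% were called lower and 15.8% higher. The share of the list called higher was thus below that of all genes, and the share called lower was near it. The lower ones were Map2k2 (-0.51, SE 0.13), which encodes a kinase that activates ERK, Mapk3 (-0.46, SE 0.14), which encodes ERK1, Mapk8 (-0.58, SE 0.17), which encodes JNK1, and Rps6ka5 (-0.98, SE 0.29), with edgeR adjusted p from 0.00936 to 0.0208. Elk1, a serum response partner, rose by 0.99 (SE 0.34, adjusted p = 0.0375), a call lost under 10 of 17 alternatives, DESeq2, the replicate block and leaving out any library but WT 3 or Rank-knockout 2 among them. With library totals the list had 2 genes called higher and 1 lower, and without Rank-knockout 3 it had 2 called lower. Of 15 feedback inhibitors of MAP kinases other than Dusp1, 8 were tested, with a median of -0.20, beside the same 14.6% of all tested genes called lower. Dusp16 fell by 0.50 (SE 0.15, adjusted p = 0.0168) and Dusp5 by 0.59 (SE 0.20, adjusted p = 0.0375). Neither was called with library totals (1 gene of the list higher, 0 lower), without the 50 most abundant genes or without Rank-knockout 2. With all 8 libraries and their usual scaling edgeR, DESeq2 and limma-voom called none of the 8 tested inhibitors higher, whereas edgeR called 1 higher and 3 lower without WT 2 and 1 higher and 1 lower without Rank-knockout 1. In the fit of all libraries 0 were higher at an unadjusted p under 0.05 in edgeR.

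Of 14 genes known as AP-1 targets in other tissues, 6 were tested, 2 were called lower and 1 higher, with a median of -0.09, against the 14.6% and 15.8% of all tested genes. Hbegf, an EGF receptor ligand, was at 63.7, 69.9, 141 and 150 CPM in WT 1 to 4 and at 45.4, 53.3, 54.9 and 26.6 CPM in Rank-knockout 1 to 4, and fell by 1.23 (SE 0.32, edgeR adjusted p = 0.0138), a call lost without Rank-knockout 1 and with the replicate number as a block. Like Fos and Junb, it was higher in WT 3 and WT 4 than in WT 1 and WT 2. Vegfa fell by 1.16 (SE 0.17, adjusted p = 0.000274), and Ccnd1, which encodes the cyclin of the G1 phase, rose by 1.44 (SE 0.20, adjusted p = 0.000274).

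Stress of isolation was followed with 20 heat shock and chaperone genes, of which 18 were tested, 10 were called higher and 1 lower, with a median log2 fold change of 0.63. The shares over all tested genes were 15.8% higher and 14.6% lower. Hsp90ab1, a constitutive HSP90 chaperone, rose by 1.07 (SE 0.18, adjusted p = 0.000667), Hspd1, the mitochondrial chaperonin, by 1.11 (SE 0.17, adjusted p = 0.000388), Hsph1 by 1.12 (SE 0.19, adjusted p = 0.000748) and Hsp90aa1 by 1.08 (SE 0.19, adjusted p = 0.000826). Dnajb4, a co-chaperone, fell by 0.69 (SE 0.25, adjusted p = 0.0479), a call that 11 of the 17 alternatives lost. The summed level of the list overlapped between the genotypes, from 4675 to 7963 CPM for WT libraries and from 7104 to 10277 CPM for Rank-knockout libraries.

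Hspa1a and Hspa1b, the near-identical HSP70 genes with the strongest known response to heat, were chosen for mention after their values were seen. Hspa1a was at 18.5, 1.52, 2.05 and 4.66 CPM in WT 1 to 4 and at 0.21, 4.5, 0.45 and 12.1 CPM in Rank-knockout 1 to 4, a difference of -0.39 on the log2 scale with an SE of 1.22 (edgeR adjusted p = 0.842). Hspa1b was between 0.67 and 11 CPM in WT and between 0.90 and 8.96 CPM in Rank-knockout and was not tested. WT 1, Rank-knockout 4 and Rank-knockout 2 were therefore the libraries with most counts per library size of both genes together. Reads of these copies can be shared or dropped in counting, which makes both levels uncertain. The part of isolation stress in the levels of the members was not tested.

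Markers of other cells and of the position of epithelial cells moved beside these results as follows. All 13 villus enterocyte markers were tested and 12 were called lower, where 14.6% of all tested genes were. Their median was -1.33 and their summed level 19181 to 23164 CPM in WT libraries and 8370 to 10788 CPM in Rank-knockout. Apoa4 was the most abundant of them and fell by 1.16 (SE 0.17, adjusted p = 0.00033), Apoa1 fell by 1.26 (SE 0.14, adjusted p = 9.88e-05) and Krt20 by 0.96 (SE 0.14, adjusted p = 0.000362). All 15 replication and mitosis markers were called higher, where 15.8% of all tested genes were. Their median was 1.23 and their summed level 616 to 960 CPM in WT libraries and 1515 to 2426 CPM in Rank-knockout. Top2a rose by 1.12 (SE 0.19, adjusted p = 0.00075), Birc5 by 1.29 (SE 0.17, adjusted p = 0.000189) and Cdk1 by 1.27 (SE 0.21, adjusted p = 0.000756). The part of this shift in the levels of Fos, Fosl2, Jun and Ier2 was not tested, and the share of villus and dividing cells cannot be told apart from transcript levels within such cells.

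Of the 11 epithelial identity markers, 3 were called higher and 2 lower, with a median of -0.03, where 15.8% of all tested genes were called higher and 14.6% lower. Cdh1 was the most abundant of them, with a log2 fold change of -0.03 (SE 0.15, adjusted p = 0.921). Of 13 immune cell markers, 5 were tested and none was called in either direction by edgeR, DESeq2 or limma-voom, with 0 at an unadjusted p under 0.05 in edgeR and DESeq2 and 1 in limma-voom, all 5 below 0, a median of -0.39 and a summed level of 42.3 to 65.2 CPM in WT libraries and 31.1 to 56.3 CPM in Rank-knockout. With no filter on low counts, without WT 3 and without Rank-knockout 3, 1 immune marker was called lower in each case. Cd79a, which marks B cells, had no counts in any library, and Ptprc, which marks all leukocytes, averaged 9.8 ± 4.44 CPM (SD, n = 4) in WT and, in Rank-knockout, 6.15 ± 2.81 CPM (SD, n = 4). Of 12 stromal, muscle and endothelial markers, only Vim was tested, without a call by edgeR, DESeq2 or limma-voom, adjusted or not (log2 fold change -0.10, edgeR adjusted p = 0.841), and their summed level was 11.3 to 19.8 CPM in WT libraries and 6.29 to 20.3 CPM in Rank-knockout. Cdh5 and Lum had no counts in any library. The summed immune and stromal levels overlapped between the genotypes.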

How the data were processed

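The authors trimmed single 3′ reads (QuantSeq, a kit that primes at the poly(A) tail and marks strand), removed those matching ribosomal, mitochondrial and adapter sequence, and aligned the rest to GRCm38 (mm10) with STAR. Sense reads were counted over Ensembl genes by featureCounts, and what the authors deposited are these raw counts. Molecular identifiers are not mentioned, so copies made by PCR count as reads. Of 54532 genes, 33764 had 0 counts in all 8 libraries, and 54495 identifiers were named with GENCODE M21.

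The main test was the robust quasi-likelihood F-test of edgeR 4.0.16 (R 4.3.3) on counts that passed filterByExpr, scaled by TMM, in a model of genotype alone. Benjamini-Hochberg adjustment ran over the 9855 genes tested, and genes with an adjusted p under 0.05 were called. Log2 fold changes are Rank-knockout minus WT, and SE came from the F statistic. CPM are counts on TMM-scaled library sizes. Nothing says that libraries of a group came from separate isolations on separate days, so p values measure the spread between these samples. Without the filter, p values of the members rest on a spread shared across genes rather than on each gene's own. The test was checked on simulated counts. DESeq2 1.42.0, limma 3.58.1 (voom), RLE factors, library totals, sizes without the 50 most abundant genes, other filters, thinning to equal depth, the replicate number as a block and leaving out each library were alternatives.

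The members and all gene lists were chosen with earlier results of these data known. Every member is given in every library. Of each other list, up to 3 genes in each direction with the smallest p past the threshold are named, with any gene averaging at least 50 CPM whose genotypes did not overlap, and of marker lists the most abundant. Same-numbered libraries did not deviate together in every pair, so the replicate number was not taken as a pairing. Promoter windows came from RefSeq.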

Additional observations from a re-analysis of the deposited data

Results flagged for a closer look

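Jun in WT 3 was at 225 CPM (330 counts), apart from the other 3 WT libraries at 160 to 171 CPM: the gap to the nearest of them was 0.829344 of the whole range, just over Dixon's critical value for 4 libraries. It was the only 1 of 20 sets of 4 values (10 genes in each genotype) with a library apart, and 1 is the number that chance gives.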

How the results depend on the processing

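The calls of Fos, Fosl2 and Jun kept their direction and their side of the threshold under all 17 alternatives. The number of members called higher was 0 to 1 and the number called lower 3 to 4 with 1 library left out. With no filter on low counts 6 members were called lower (Junb, Fosb and Dusp1 added), with p values that rest on a spread shared across genes. Other immediate early genes called lower numbered 7 to 13 with 1 library left out, 5 with library totals and 6 without the 50 most abundant genes. Among heat shock and chaperone genes, the 1 called lower (Dnajb4) became 0 with library totals, without the 50 most abundant genes, with no filter, with DESeq2 and after thinning, and 0 to 1 with 1 library left out. Egr1, never called, reversed to a log2 fold change of 0.12 with library totals and 0.051 without the 50 most abundant genes, and ran from -0.45 to 0.14 with 1 library left out (0.14 without WT 3, 0.13 without Rank-knockout 1 and 0.068 without Rank-knockout 4). Junb was called under 6 alternatives (adjusted p from 0.00761 to 0.0417) and Ier2 was not called under 6 (0.0543 to 0.118). The cause was not tested.

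Library totals moved the median over all genes (log2 fold change) from 0.02 to 0.22 and sizes without the 50 most abundant genes to 0.15, and the calls over all genes from 1555 higher and 1438 lower to 2566 and 859, and to 2164 and 1016. Relative to those medians the directions of Fos, Fosl2, Jun and Ier2 were as in the main analysis. With the replicate number as a block, 1 member was called higher and 4 lower (Junb added), and 1708 genes were called higher and 1602 lower. Same-numbered libraries correlated by 0.05, 0.15, -0.14 and 0.32 over 9855 genes, so the samples share only a number, and not every WT library correlated best with its own number. Fosb, Atf3, Dusp1 and Egr1 had 16 to 131 counts in each genotype, and how counting error and spread between libraries divide there was not tested.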
